A study of Mus musculus with 6 samples.

Results

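Olfactory ensheathing glia are the cells that wrap the axons of olfactory sensory neurons from the nasal lining to the olfactory bulb. They arise from the neural crest, as do the Schwann cells of other peripheral nerves, and both lineages depend on the transcription factor Sox10. In the olfactory mucosa they lie in the nerve bundles of the lamina propria, beneath the epithelium, so a dissected sample holds them as a small part of a mixed tissue. Ensheathing glia surround bundles of thin axons without laying down compact myelin, whereas myelinating Schwann cells make the myelin proteins in quantity. The 8 genes described here were taken as a list of symbols of ensheathing glia and Schwann cell genes, namely Sox10, Foxd3, Mbp, Fabp7, S100b, Cdh19, Npy and Frzb. All 8 were found among the 53686 genes of the count table, and all 8 passed the filter on low counts, which left 19267 genes to test.

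The tissue was main olfactory epithelium, dissected from mice of the C57BL/6J strain, and its polyadenylated RNA was sequenced. A group of 3 libraries came from wild-type mice and a group of 3 from mice hemizygous for 5x21-OR1A1, a transgene named for the human odorant receptor gene OR1A1. The labels give neither age nor sex, do not say which promoter drives the transgene or how many lines were used, and do not tie a library to an animal. The p-values therefore rest on the spread from library to library, part of which may be technical. The study concerns receptor choice by olfactory neurons, and the comparison here is of glial genes between the genotypes.

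Library totals ran from 27506217 to 35804712 counts. Olfr151, the M71 receptor gene, separated the libraries by their genotype labels. It had 3, 0 and 2 counts in the wild-type group, whereas the 5x21-OR1A1 group had 205, 294 and 217. By Xist and Ddx3y counts 1 wild-type and 2 5x21-OR1A1 libraries were female and the others male. The libraries of a group were thus not all from the same animal. Over all genes, edgeR's quasi-likelihood test called 523 of 19267, or 2.71%, at a Benjamini-Hochberg adjusted p under 0.05, with 100 higher (0.519%) and 423 lower (2.20%) in 5x21-OR1A1 tissue. With counts scaled to mature neuron markers in place of library totals, the split became 14657 higher against 255 lower, and the median log2 fold change over all genes moved from 0.02 to 0.71.

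The glial identity of the reads was checked against markers of other cells that make some of the same products. The oligodendrocyte genes Mog and Opalin had 0 counts in all 6 libraries, and Mobp had 0 to 2. A count of 0 allows up to 3 counts in a library, so Mog and Opalin were not detectable at this depth. Of the same list, Hapln2, Gpr17 and Myrf had 0 to 16 counts. Olig1 had 1361 to 2202 counts, Olig2 940 to 1624, Cldn11 844 to 1132 and Aspa 239 to 330, so the list as a whole was not absent. Of 6 genes of melanocytes, another Sox10-dependent lineage, Dct, Tyr and Tyrp1 had 0 to 4 counts each and Mlana 1 to 14, while Pmel had 27 to 53 and Mitf 114 to 197. Cartilage, where S100b and Frzb are also made, was present, with Col2a1 at 9.62 to 17.9 CPM (counts relative to the TMM-adjusted depth of each library) and Comp at 23.3 to 40.1 CPM. Omp, the marker protein of mature olfactory neurons, was at 6655 CPM or more in every library.

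The 8 genes differed widely in abundance, and their order of level per length was the same in 5 of 6 libraries. Levels between genes are compared here as CPM per kilobase of merged exon. Fabp7, a brain-type fatty acid binding protein of immature and ensheathing glia, was highest at a mean of 44.3 CPM per kilobase (range 38.0 to 51.0 over 6 libraries). S100b, a calcium-binding protein of glia, followed at 24.1 (20.7 to 27.8), and Sox10 at 12.7 (11.01 to 14.30). Npy, a peptide transmitter also made by ensheathing glia, had a mean of 6.92 CPM per kilobase (5.554 to 8.003). Mbp, a protein of compact myelin, had 4.72 (4.17 to 5.18), below Npy although it had more counts in every library, since its merged exons span 8469 bases against 566 for Npy. Cdh19, a cadherin of Schwann cell precursors, had 2.37 (1.92 to 2.76). The lowest were Frzb, a secreted Wnt antagonist, at 1.61 (1.37 to 1.83) and Foxd3, a forkhead factor of neural crest cells, at 1.47 (1.30 to 2.07). Only these last neighbours overlapped in range, with Frzb above Foxd3 in 5 of 6 libraries. Each of the other 6 neighbouring pairs kept its order in 6 of 6 libraries with no overlap of ranges, at ratios of 1.465 to 1.995 between means.

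**Figure D1:**
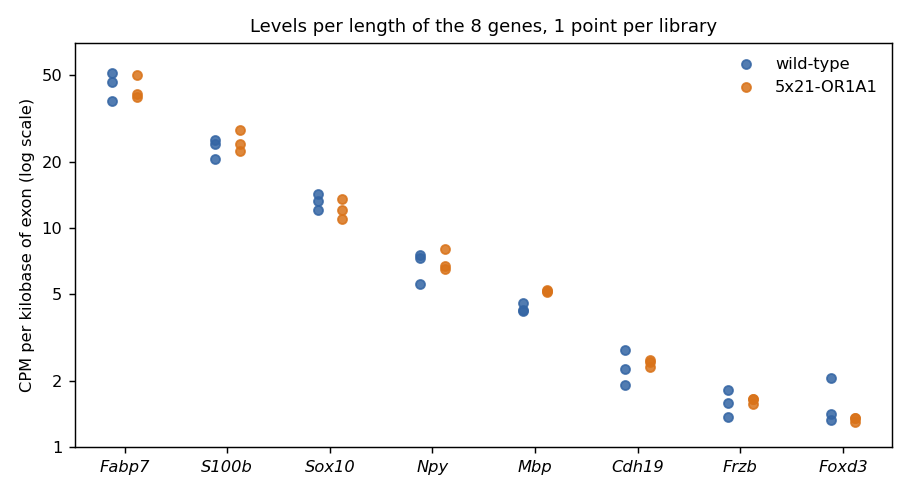
CPM per kilobase of merged exon (log scale) of the 8 genes, 1 point per library, blue for wild-type and orange for 5x21-OR1A1. The genes run from Fabp7, with a mean of 44.3, to Foxd3, with a mean of 1.47, and the wild-type and 5x21-OR1A1 ranges overlap for each gene except Mbp.

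The regulatory sequence upstream of the most abundant genes was read from RefSeq (GRCm38.p6), which matched 5 of the 8 genes in its promoter table (Foxd3, Npy, Frzb, Fabp7 and S100b). The windows of Fabp7 and S100b are shown because these genes had the highest levels per length. Both lie on the plus strand of chromosome 10, Fabp7 at chr10:57784673-57784880 and S100b at chr10:76253586-76253835, and both end before the first annotated start in RefSeq and GENCODE. Capitals mark the CCAAT box, a common promoter element, read as CCAAT or, on the other strand, as ATTGG.
Fabp7: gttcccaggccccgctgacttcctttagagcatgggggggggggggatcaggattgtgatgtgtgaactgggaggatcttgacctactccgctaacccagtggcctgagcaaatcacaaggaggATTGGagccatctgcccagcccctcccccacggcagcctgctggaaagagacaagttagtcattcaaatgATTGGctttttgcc
S100b: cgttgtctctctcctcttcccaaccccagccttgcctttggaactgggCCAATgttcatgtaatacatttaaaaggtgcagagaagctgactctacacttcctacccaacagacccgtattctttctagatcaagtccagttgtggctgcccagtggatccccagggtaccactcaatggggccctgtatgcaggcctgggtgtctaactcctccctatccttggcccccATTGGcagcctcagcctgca
Each of these windows held 2 such matches, and 3 of the 5 genes held at least 1. The CCAAT box was searched for after the sequences had been seen. Of 32851 promoter windows of 250 bases, 33.9% held at least 1 and 10.1% at least 2. The letters ACAAAG and ACAATG, which SOX proteins bind, had been searched first, on both strands. They had no match in the 250 bases before the RefSeq start of any of the 5 genes. Of these 250 bases, only 21 for Frzb and 208 for Fabp7 also lay before the first GENCODE start. Of all windows, 25.2% held 1 or more such matches. Matches describe the letters only.

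None of the 8 genes was called different between the genotypes. Of all tested genes edgeR called only 2.71%, so 0 of 8 lies near that share. The log2 fold change was below 0 for 3 of them and above 0 for 5, and the median log2 fold change was 0.04, beside 0.02 for all 19267 genes. At an unadjusted p under 0.05 edgeR picked 1 of the 8, Mbp, where 17.1% of all tested genes passed. DESeq2 and limma-voom also called 0 of the 8 at an adjusted p under 0.05, and 1212 and 503 of all 19267 genes. Because this is bulk tissue, a difference in the number of glial cells and one in RNA per glial cell could not be told apart.

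**Figure D2:**
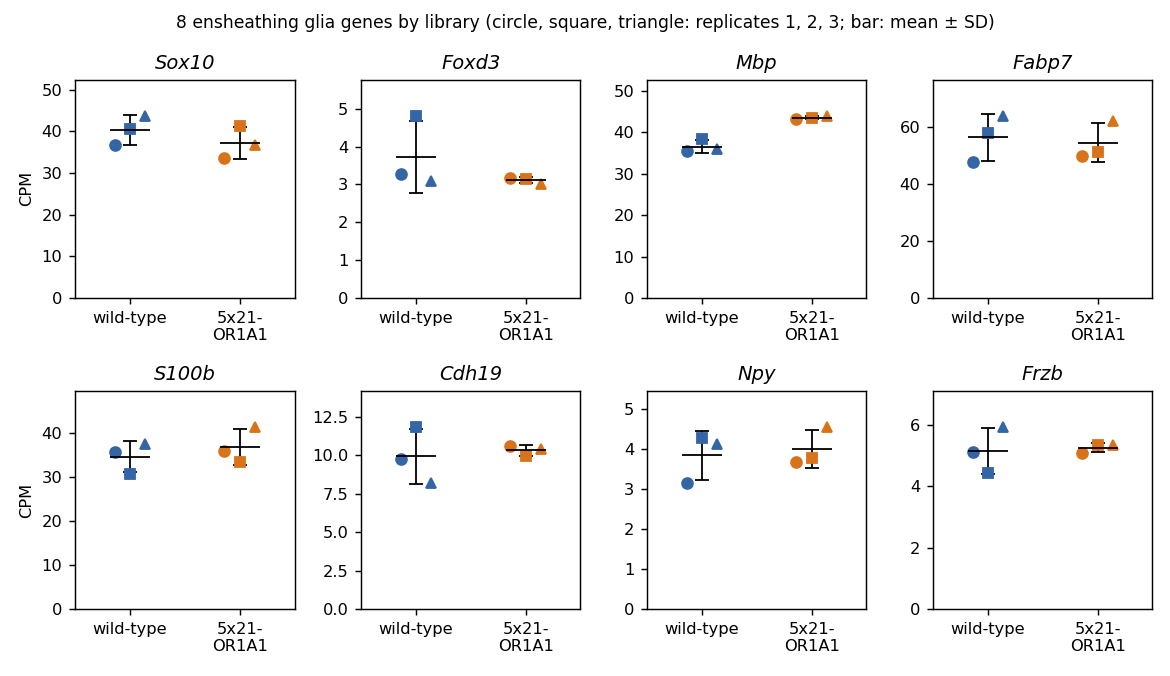
CPM of each gene in the 3 wild-type (blue) and 3 5x21-OR1A1 (orange) libraries, with markers for replicates 1 to 3 and bars for the mean ± SD, each axis starting at 0. Only for Mbp do all 3 5x21-OR1A1 libraries (43.2 to 43.9 CPM) lie above all 3 wild-type libraries (35.3 to 38.3 CPM).

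The transcription factors of the lineage came first. Sox10, which neural crest glia need at every stage, lies on the minus strand of chromosome 15 at 79154908 to 79165240 (GRCm38). It was at 36.7, 40.6 and 43.6 CPM in wild-type and 33.6, 41.1 and 36.8 CPM in 5x21-OR1A1 libraries. The groups overlapped, with the lowest library transgenic and the highest wild-type. Its means were 40.3 ± 3.48 and 37.2 ± 3.79 CPM (SD, n = 3 each), and the log2 fold change was -0.12 (SE 0.10, edgeR adjusted p = 0.620). Foxd3, an early crest factor kept in glial precursors, lies on the plus strand of chromosome 4 at 99656299 to 99658622. It was at 3.27, 4.81 and 3.08 CPM in wild-type and 3.16, 3.16 and 3.02 CPM in 5x21-OR1A1 libraries. Wild-type library 2 stood above the other 5, which lay close together. Its log2 fold change was -0.26 (SE 0.21, edgeR adjusted p = 0.584), and it was -0.023 without wild-type library 2. A microRNA gene lies inside the single exon of Foxd3 on the same strand and shares 89 bases with it, so reads there may not have been counted for Foxd3.

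Mbp was the gene with the clearest difference, and it did not pass the threshold over all genes. It lies on the plus strand of chromosome 18 at 82475146 to 82585637. It was at 35.3, 38.3 and 35.8 CPM in wild-type and 43.2, 43.5 and 43.9 CPM in 5x21-OR1A1 libraries. The groups did not overlap, which held for 11.4% of all tested genes in this direction and 12.5% in the other. Mbp was 1 of 8 here, and 0 of 8 lay wholly lower. The means were 36.5 ± 1.59 and 43.5 ± 0.345 CPM (SD, n = 3 each). The log2 fold change was 0.25 (SE 0.07, 95% interval 0.09 to 0.41), with an edgeR p of 0.00656 and an adjusted p of 0.117 over all tested genes. That is a ratio of 1.19, with an interval from 1.07 to 1.33. The annotation gives Mbp 16 transcripts with 12 different start sites, among them those of the golli proteins, which neurons and immune cells also make, and the counts per gene do not separate them.

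The genes for cytoplasmic and surface proteins of glia did not separate the genotypes. Fabp7, on chromosome 10 at 57784881 to 57788450, was at 47.5, 57.7 and 63.8 CPM in wild-type and 49.7, 51.2 and 62.2 CPM in 5x21-OR1A1 libraries. Both groups spanned nearly the same range, and the log2 fold change was -0.05 (SE 0.13, edgeR adjusted p = 0.880). S100b, on chromosome 10 at 76253853 to 76261159, was at 35.9, 30.7 and 37.5 CPM in wild-type and 35.9, 33.4 and 41.3 CPM in 5x21-OR1A1 libraries, with a log2 fold change of 0.09 (SE 0.11, edgeR adjusted p = 0.741). Here wild-type library 2 was the lowest of the 6 and 5x21-OR1A1 library 3 the highest. Cdh19, on the minus strand of chromosome 1 at 110888326 to 110977584, was at 9.75, 11.8 and 8.23 CPM in wild-type and 10.6, 9.95 and 10.4 CPM in 5x21-OR1A1 libraries. All 3 5x21-OR1A1 values lay inside the wild-type range, and the log2 fold change was 0.06 (SE 0.15, edgeR adjusted p = 0.887).

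The secreted products also overlapped between the genotypes. Npy, on chromosome 6 at 49822710 to 49829507, was at 3.14, 4.26 and 4.12 CPM in wild-type and 3.68, 3.77 and 4.53 CPM in 5x21-OR1A1 libraries. Wild-type library 1 was lowest and 5x21-OR1A1 library 3 highest, and the log2 fold change was 0.05 (SE 0.18, edgeR adjusted p = 0.913). Frzb, on the minus strand of chromosome 2 at 80411970 to 80447625, was at 5.11, 4.42 and 5.92 CPM in wild-type and 5.10, 5.35 and 5.34 CPM in 5x21-OR1A1 libraries. Its 5x21-OR1A1 values lay inside the wild-type range, with a log2 fold change of 0.03 (SE 0.15, edgeR adjusted p = 0.940).

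**Figure D3:**
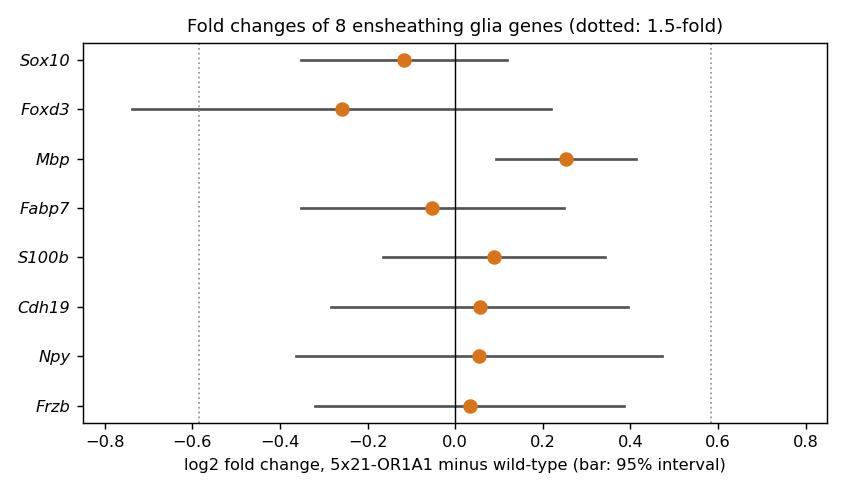
Log2 fold change of each gene (5x21-OR1A1 minus wild-type, edgeR) with its 95% interval, and dotted lines at a 1.5-fold change either way. The interval of Mbp, 0.09 to 0.41, lies above 0, the other 7 include 0, and that of Foxd3 alone passes a dotted line, reaching -0.74.

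The intervals show how large a change these libraries leave room for. For 7 of the 8 genes the 95% interval of the ratio lay inside a 1.5-fold change in either direction. For Foxd3 it ran from 0.600 to 1.16, inside a 2-fold change. The widest on the upper side was that of Npy, from 0.777 to 1.39. Sox10 had an interval of 0.783 to 1.09, Fabp7 of 0.783 to 1.19 and S100b of 0.892 to 1.27.

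Counting error set part of this width. Foxd3 and Npy had 82 to 175 counts per library, which gives a counting error of 9.04% and 8.97% of the mean in wild-type libraries, against an observed coefficient of variation of 25.5% and 15.8%. For Sox10 the wild-type spread of 8.64% stood against a counting error of 2.78%, and for Fabp7 14.5% against 2.35%. In 5x21-OR1A1 libraries Foxd3 varied by only 2.58% where counting alone gives 10.2%, and Mbp by 0.792% where counting gives 2.72%. Frzb, at 2.74% against 7.84%, and Cdh19, at 3.37% against 5.58%, did the same. For these 4 of the 8 genes the SD of the 5x21-OR1A1 libraries is thus smaller than counting error, and the SE from edgeR, which borrows spread from other genes, is the larger error.

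The summed share of the 8 genes in the library was nearly level. It was 0.0180%, 0.0196% and 0.0194% of counts in wild-type and 0.0192%, 0.0188% and 0.0205% in 5x21-OR1A1 libraries. The means were 0.0190% ± 0.000857 and 0.0195% ± 0.000897 (SD, n = 3 each), a log2 ratio of 0.036, and the groups overlapped. Fabp7 made up 28.7% of the summed counts, Mbp 20.8%, Sox10 20.1% and S100b 18.5%. The summed mature neuron markers made up 2.29% ± 0.321 of counts in wild-type tissue and 1.41% ± 0.0651 in 5x21-OR1A1 tissue. Per 1000 marker counts the sum of the 8 was therefore 8.36 ± 0.830 in wild-type and 13.9 ± 1.30 in 5x21-OR1A1 libraries. That is a log2 ratio of 0.73, with no overlap. With the whole table scaled to those markers, the 8 genes were all higher and 7 were called, at log2 fold changes of 0.46 (Foxd3, edgeR adjusted p = 0.0749) to 0.95 (Mbp, edgeR adjusted p = 0.00212). The median of the 8 was then 0.74, beside 0.71 for all genes.

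Other genes of the same lineage were taken from 3 lists chosen by known role. None of the 33 tested of 36 was called by edgeR, where 2.71% of all tested genes were. At an unadjusted p under 0.05, 1 was higher and 5 lower, where 17.1% of all tested genes passed (1441 higher and 1852 lower). Of the 33, 14 were above 0 and 19 below 0, with a median of -0.09. DESeq2 called 1 of them lower, Apod (-0.34, DESeq2 adjusted p = 0.0382), and limma-voom 0.

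Among 13 tested Schwann cell and myelin genes the median log2 fold change was -0.14. Among the most abundant by CPM were Mal, a raft protein of myelin and of many epithelia (0.06), and Cnp, a myelin-associated enzyme (0.16), with edgeR adjusted p of 0.886 and 0.595. Chosen after its values were seen, Mag, an adhesion protein of the inner myelin membrane, had -0.43 (SE 0.16, edgeR adjusted p = 0.226). Mag was at 7.72, 8.16 and 6.02 CPM in wild-type and 5.04, 5.32 and 5.97 CPM in 5x21-OR1A1 libraries, so its groups missed overlapping by a small margin, in the direction opposite to Mbp. Egr2, the myelin regulator, also named after its values were seen, and an immediate early gene too, was at 0.413, 5.85 and 1.52 CPM in wild-type and 0.981, 0.377 and 0.442 CPM in 5x21-OR1A1 libraries. Wild-type library 2 stood far above the other 5.

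Among 10 neural crest glia genes, which include receptors for glial growth signals, the median was 0.11 and values ran from -0.14 to 0.81. Ncam1, a neural adhesion molecule that neurons also make, had -0.11, Cadm4, an adhesion protein of Schwann cells, -0.07 and Erbb2, a co-receptor for neuregulin, 0.08, with edgeR adjusted p of 0.640, 0.715 and 0.698. Erbb3, the neuregulin receptor of crest glia, was at 61.3, 52.9 and 52.7 CPM in wild-type and 59.7, 63.2 and 59.7 CPM in 5x21-OR1A1 libraries (0.13, edgeR adjusted p = 0.482). Its ligand Nrg1 had a log2 fold change of 0.38 (edgeR adjusted p = 0.360).

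Among 10 tested further genes of ensheathing glia the median was -0.18, with 8 below 0. These genes are less restricted, since Apoe, a lipid carrier, Apod, a lipocalin, and Vim, an intermediate filament, are made by several cell types of the mucosa. Apoe had -0.20, Apod -0.33 and Vim 0.27, with edgeR adjusted p of 0.365, 0.209 and 0.199.

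**Figure D4:**
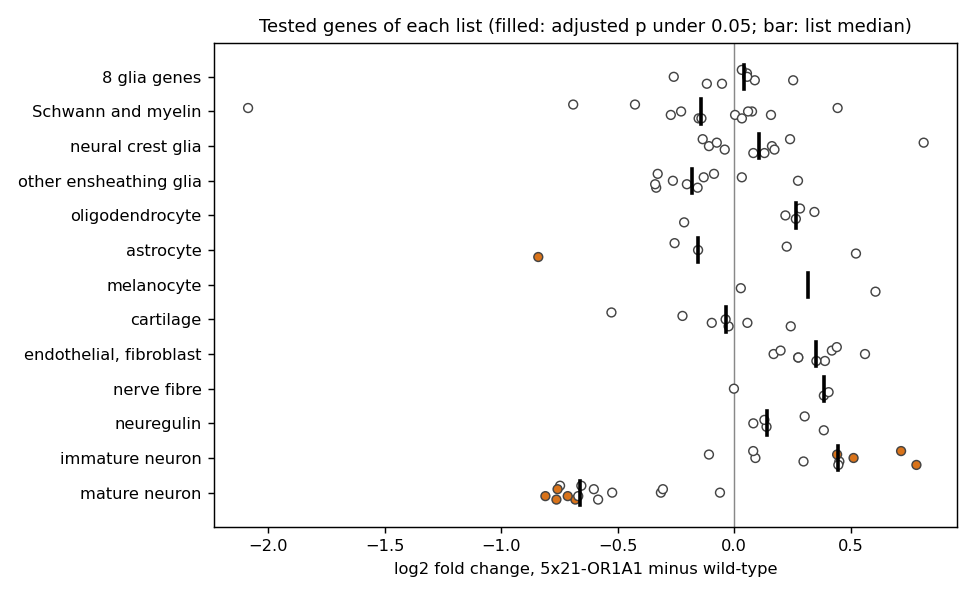
Log2 fold change (5x21-OR1A1 minus wild-type) of every tested gene of 13 lists, filled where the edgeR adjusted p was under 0.05, with a bar at each list's median; bulb neuron, gland and sustentacular lists are not drawn. The 8 glia genes centre on 0.04 with no filled point, while filled points stand in the astrocyte, immature neuron and mature neuron lists.

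Mbp was also compared with its partners within each library, a comparison chosen after its values were seen. The log2 ratio of Mbp to Sox10 was -0.14 ± 0.13 in wild-type and 0.23 ± 0.14 in 5x21-OR1A1 libraries (SD, n = 3 each), with no overlap. The ratio to Foxd3 was 3.32 ± 0.29 and 3.801 ± 0.05, also with no overlap, and the other 5 ratios, though higher on average, overlapped. Mbp therefore had non-overlapping ratios, higher in 5x21-OR1A1 tissue, against 2 of 7 members. It had them against 18 of 33 other glial genes, or 54.5%. Of all 19266 other tested genes 42.3% gave the same, so the members' share of 28.6% lay below that background and the other glial share above it, with no test of either. In the list of Schwann cell and myelin genes the ratio to Mag differed by 0.67 with no overlap, while the ratios to Cnp, Pmp22 and Mal overlapped.

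**Figure D5:**
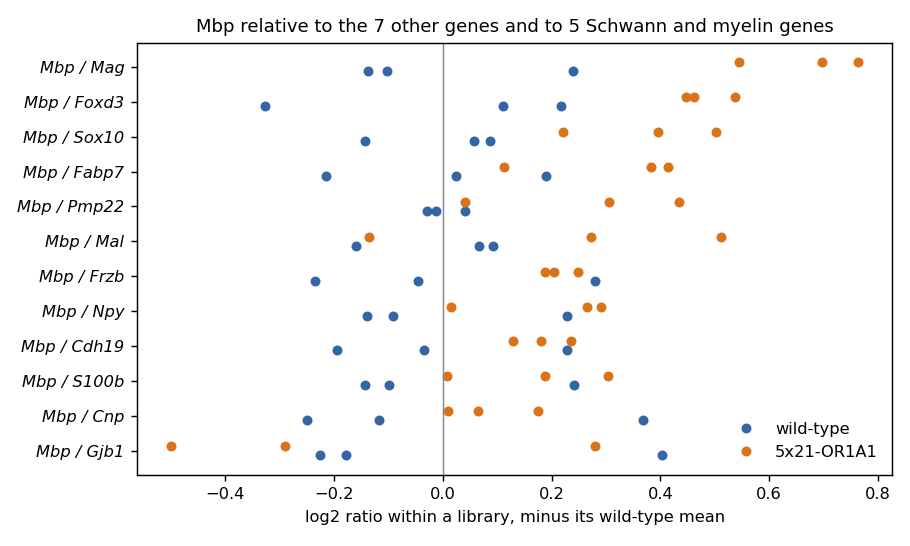
Log2 ratio of Mbp to each of the 7 other genes and to Mag, Pmp22, Mal, Cnp and Gjb1 within a library, less the wild-type mean, with wild-type in blue and 5x21-OR1A1 in orange. The orange points lie wholly to the right for Sox10, Foxd3 and Mag and mix with the blue ones for S100b, Cnp and Gjb1.

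The 8 genes did not rise and fall together from library to library. Over the 6 libraries, which share the scaling, the Pearson correlation of log2 CPM between members had a median of 0.168 over 28 pairs and was above 0 in 17. It ran from -0.913 between Frzb and Cdh19 to 0.880 between Npy and Fabp7. Sox10 correlated with Fabp7 at 0.532 and with Mbp at -0.396. These are descriptions over 6 points. The mean of the 8 standardised profiles was lowest in wild-type library 1 and highest in 5x21-OR1A1 library 3. The genes with the most similar profile among 16758 at 1 CPM or more were Wdr73 (0.995), Olfr120 (0.9875), 2810006K23Rik (0.9855), Tmem167 (0.976) and Alyref2 (0.976), and 46 genes reached 0.9. Of the other glial genes 5 of 31 lay in the top 10%, while Erbb3 stood at -0.41.

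Markers of neighbouring cells moved in the same libraries, and their part in the glial values was not tested. Over all 77 tested genes of other cell types, edgeR called 4 higher and 7 lower. Of all tested genes, 0.519% were called higher and 2.20% lower. Of 14 mature neuron markers 5 were called lower and 0 higher, with a median of -0.66 and a summed level of 19782 to 25984 CPM in wild-type and 13542 to 14950 CPM in 5x21-OR1A1 libraries. Under some alternatives 0 of the genes of other cell types were called lower. These were sex as a covariate, counts scaled to the mature neuron markers and an adjusted p under 0.01. Leaving out wild-type library 2, 5x21-OR1A1 library 1 or 5x21-OR1A1 library 3 gave the same. The lower calls among neuron markers and those of Slc1a2 and Eomes thus ended there. Without 5x21-OR1A1 library 2, Slc1a2 alone was still called lower. Of 10 immature neuron markers 4 were called higher and 0 lower, with a median of 0.45. Among these 4, only Gap43 was still called when any 1 of the 5x21-OR1A1 libraries was left out. With sex as a covariate Gap43 and Stmn1 were still called. Gap43, a growth cone protein of the axons that these glia wrap, rose by 0.78 (SE 0.10, edgeR adjusted p = 0.00845). Prph, a filament of peripheral axons, had 0.41 (edgeR adjusted p = 0.0643) with no overlap, and 2 of 3 tested nerve fibre genes were above 0. All 9 endothelial and fibroblast markers were above 0 and none passed, with a median of 0.35. Their summed level was 2439 CPM in wild-type library 2 and up to 5711 CPM in the other wild-type libraries. In 5x21-OR1A1 libraries it was 5692 to 6591 CPM. Among 5 astrocyte genes Slc1a2, a glutamate transporter, fell by 0.84 (edgeR adjusted p = 0.0305), from 58.3 to 80.1 CPM in wild-type to 32.5 to 44.9 CPM in 5x21-OR1A1 libraries. That list went both ways, with 2 genes above 0 and 3 below, and Slc1a3, another glutamate transporter named after its values were seen, had 0.52 (edgeR adjusted p = 0.132) with no overlap. Eomes, a factor of bulb projection neurons and of other cells, fell by 0.90 (edgeR adjusted p = 0.034), and edgeR called no gland, sustentacular, cartilage or oligodendrocyte gene. DESeq2 called Krt18 of the gland list and Cyp1a2 and Sult1c1 of the sustentacular list lower (DESeq2 adjusted p = 0.00621, 0.0395 and 0.00366). With sex as a covariate edgeR called the gland gene Bpifb9b higher (edgeR adjusted p = 0.0418). Bpifb9b was at 6.86, 110 and 292 CPM in wild-type and 8805, 144 and 1421 CPM in 5x21-OR1A1 libraries. Its groups overlapped, and 5x21-OR1A1 library 1 stood far above the rest. These 4 genes were named after their values were seen.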

How the data were processed

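The deposited table holds raw counts per gene symbol for 6 libraries, with no normalization by the authors. Per the labels' protocols the libraries were nonstranded, selected for poly-A and read as single ends. The submitters' processing notes list TopHat2 2.1.1, HTSeq 0.9.1 and the build GRCm38.p5. No source used here states the annotation or the counting options. Reads of genes that overlap on opposite strands could not be separated.

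The main test was the quasi-likelihood test of edgeR 4.0.16, run under R 4.3.3, on genotype alone (TMM scaling, filterByExpr at its default minimum count, 10, and minimum total, 15, Benjamini-Hochberg adjustment over 19267 genes, threshold 0.05). SE is the log2 fold change over the square root of F, and 95% intervals use the test's degrees of freedom. The test was also run on simulated counts with no difference in sex or cell composition, so that run cannot speak to either. Exon lengths and coordinates came from GENCODE M21 (GRCm38). Totals of 27506217 to 35804712 counts set the precision, and intervals for zero counts cover counting error only. Replicates of a group differed by more than counting noise, with a chi-square of 55.5 or more per degree of freedom.

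The genes and lists were chosen with earlier results of these data known. Named were all 8 genes and, of each other list the text describes, genes past the threshold (up to 4) and among the 3 most abundant; all others, among them Col2a1, Pmp22, Gjb1 and the low oligodendrocyte and melanocyte markers, were chosen after their values were seen. Alternatives were DESeq2 1.42.0, limma-voom (limma 3.58.1), other scalings and filters, a replicate block, a stricter threshold, each library left out and, added after seeing the data, sex as a covariate. Some genes of the lists enter the counts but are not reported here by name.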

Additional observations from a re-analysis of the deposited data

How the results depend on the processing

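Of 120 values of the 8 genes under 15 alternatives each, 10 changed sign and 7 passed an adjusted p of 0.05, these 7 with counts scaled to mature neuron markers. That scaling turned Sox10 to 0.58, Foxd3 to 0.46 and Fabp7 to 0.66. It gave 7 of the 8 genes called, 24 of the other glial genes, 49 of other cell types and 14912 of all genes. Per marker count, the summed counts of the 8 genes had a log2 ratio of 0.73. By construction that scaling removes the fall of those markers. Leaving out 1 library gave -0.073 to 0.14 for Npy, -0.062 to 0.14 for Frzb, -0.16 to 0.044 for Fabp7, -0.063 to 0.21 for Cdh19 and -0.00076 to 0.15 for S100b, with no call. Mbp was 0.23 to 0.30 with 1 library left out (edgeR adjusted p = 0.106 to 0.348), and its adjusted p was 0.0963 to 0.227 under the other alternatives except the marker scaling, where it was 0.00212. The call count of the 8 genes was 0 in each alternative but the marker scaling.

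Over all genes DESeq2 called 1212, sex as a covariate gave 289 and an adjusted p under 0.01 left 154; leaving out 1 library gave 150 to 626. Among other glial genes DESeq2 called 1, and leaving out 1 library gave 0 to 1, that 1 being Ednrb without wild-type library 1 (1.39, edgeR adjusted p = 0.0216). Among genes of other cell types DESeq2 called 24, sex as a covariate gave 3 (Gap43, Stmn1 and Bpifb9b, the last not called without that covariate by the main test; 0 lower), an adjusted p under 0.01 left 1, and leaving out 1 library gave 1 to 12. The largest of these counts, 626 and 12, came without wild-type library 1. A stricter threshold lowers a count by construction; for the other shifts the cause was not tested. With the replicate number as a replicate block 377 genes were called and 0 of the 8, and of the genes of other cell types Eomes, Omp and Stmn2 were no longer called. Same-numbered libraries had correlations of deviations of -0.36, 0.11 and -0.112, so the numbers were not taken to pair them, and not every library correlated best with its own number. Depth limits Foxd3 and Npy most, at 82 to 175 counts per library.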

Other observations

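Olig1 and Olig2, transcription factors best known from the oligodendrocyte lineage, were among the more abundant genes of the oligodendrocyte list, although Mog and Opalin had no counts. Olig2 was at 29.9, 37.8 and 37.0 CPM in wild-type and 44.3, 49.7 and 38.9 CPM in 5x21-OR1A1 libraries (log2 fold change 0.34, SE 0.12, edgeR adjusted p = 0.208), so its groups did not overlap and it did not pass the threshold. Olig1 was at 43.2 to 56.2 CPM in wild-type and 54.6 to 65.3 CPM in 5x21-OR1A1 libraries (0.22, edgeR adjusted p = 0.395). Cldn11, a tight junction protein of myelin and of epithelia, was at 29.2 to 30.2 CPM in wild-type and 30.9 to 40.6 CPM in 5x21-OR1A1 libraries (0.26, edgeR adjusted p = 0.251). Which cells of the mucosa made these RNAs was not tested.

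Ednrb, an endothelin receptor of crest and endothelial cells, was at 6.61, 2.58 and 2.73 CPM in wild-type and 7.74, 5.52 and 7.66 CPM in 5x21-OR1A1 libraries. Its log2 fold change was 0.81 (SE 0.36, edgeR adjusted p = 0.300), and wild-type library 1 lay among the 5x21-OR1A1 values. Mitf, a regulator of pigment cells and other lineages, was at 3.32 to 4.54 CPM in wild-type and 4.69 to 6.76 CPM in 5x21-OR1A1 libraries (0.61, edgeR adjusted p = 0.173). Both were chosen after their values were seen.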
